A study of Mus musculus with 4 samples.

Results

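The 6 mouse GATA transcription factor genes and the 2 FOG cofactor genes were followed in 3T3-L1 cells, a mouse preadipocyte line, with and without the plant alkaloid berberine. The members were taken by gene symbol from the probe annotation. All 8 genes (Gata1 to Gata6, Zfpm1 and Zfpm2) were represented, by 9 of the 26423 probes on the array, with a pair of probes for Gata2 and a single probe for each of the others. Berberine samples (n = 2) received 13.47 µM berberine together with the adipogenic mixture, and control samples (n = 2) received the mixture alone, going by the titles, source names and descriptions. The treatment protocol in the labels is worded alike for all 4 samples and names berberine for the controls too, so every difference below rests on those other labels. In both groups the mixture held 1 µg/ml insulin, 1 µM dexamethasone and 0.5 mM isobutylmethylxanthine and was given for 48 hours, and untreated preadipocytes were not analysed here. The samples came from 1 cell line, and nothing in the labels says that they were separate cultures, so p-values reflect only how far these arrays scatter, which may be technical.

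GATA factors bind DNA at short sites built on the letters GATA, through zinc fingers that also contact partner proteins. FOG proteins (friend of GATA, encoded by Zfpm1 and Zfpm2) do not read this site themselves. They dock on a zinc finger of a GATA factor and bring corepressors such as the NuRD complex and CtBP, or act as coactivators, depending on the gene. In fat tissue Gata2 and Gata3 are known as genes of preadipocytes whose expression declines as adipocytes form. When kept on they hold back differentiation, by binding the promoter of the adipogenic receptor gene Pparg and by pairing with C/EBP proteins.

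Berberine samples had higher levels of Gata3, Gata2, Gata6 and Zfpm1, each by 2.82-fold to 6.02-fold, and a small rise of Zfpm2. The Gata2 value is that of its brighter probe; its dimmer probe did not rise (log2 change -0.33), and their average changed by 0.61. Gata1, Gata4 and Gata5 did not pass the test. The promoters of Gata2, Gata3 and Zfpm1 are shown because these are the called members with a window in the RefSeq table (build GRCm38.p6). A window was found for 5 of the 8 members, not for Gata4, Gata6 or Zfpm2, and Gata2 has a pair of start sites there. The windows of Gata3 and Zfpm1 lie inside the gene spans given further below, not before their 5′ ends. Each therefore belongs to the start site listed there, and a start at the outer end of the span has no window. Each line gives the 250 bases before the start, 5′ to 3′ on the gene's strand. Capitals mark GGGCGG (the GC box) and CCAAT, on either strand, so CCGCCC and ATTGG are capitalised too; GATA was also searched on both strands.
Gata3, chr2:9878601-9878850 (- strand): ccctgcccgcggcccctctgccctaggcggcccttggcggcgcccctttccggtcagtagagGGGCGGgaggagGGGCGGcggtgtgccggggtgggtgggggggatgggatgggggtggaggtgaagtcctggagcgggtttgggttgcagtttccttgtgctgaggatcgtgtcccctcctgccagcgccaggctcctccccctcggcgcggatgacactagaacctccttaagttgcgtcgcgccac
Gata2, first start site, chr6:88193641-88193890 (+ strand): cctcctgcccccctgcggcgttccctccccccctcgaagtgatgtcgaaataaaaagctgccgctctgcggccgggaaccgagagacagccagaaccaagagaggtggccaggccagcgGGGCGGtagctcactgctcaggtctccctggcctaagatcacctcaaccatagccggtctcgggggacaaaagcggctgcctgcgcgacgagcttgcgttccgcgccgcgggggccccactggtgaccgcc
Gata2, second start site, chr6:88198414-88198663 (+ strand): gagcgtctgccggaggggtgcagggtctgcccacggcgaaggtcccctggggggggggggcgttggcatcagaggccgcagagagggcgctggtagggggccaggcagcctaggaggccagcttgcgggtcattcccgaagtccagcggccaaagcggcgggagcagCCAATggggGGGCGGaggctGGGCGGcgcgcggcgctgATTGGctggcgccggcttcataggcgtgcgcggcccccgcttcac
Zfpm1, chr8:122281891-122282140 (+ strand): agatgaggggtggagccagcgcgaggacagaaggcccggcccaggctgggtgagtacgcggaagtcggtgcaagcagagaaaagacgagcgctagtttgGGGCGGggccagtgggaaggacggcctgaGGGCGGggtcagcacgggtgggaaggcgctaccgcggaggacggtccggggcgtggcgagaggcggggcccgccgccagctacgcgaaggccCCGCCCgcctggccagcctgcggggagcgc

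All 4 windows, a pair of them from Gata2, held at least 1 GGGCGG, which 35.7% of the 32851 promoter windows of 300 bases in the table contain. The windows of Gata1 and Gata5, which did not pass the test, held 3 and 2, so GGGCGG was not particular to the risen genes. The 4 windows were rich in G and C (67.3% to 73.7% of bases). CCAAT was found, once on each strand, at the second Gata2 start site (37.4% of all windows). The letters GATA did not occur in these stretches on either strand. The single match in the 4 windows lay in that of Gata3, 37 bases past the start and outside the stretch printed. Over all windows 57.9% hold at least 1, and the Gata1 window held 1. No motif matches overlapped in the stretches printed. The matches describe letters in these windows only.

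RNA from whole cultures was read with 1 colour on 1 array per sample, and a change in RNA per cell cannot be told apart from a change in the share of cells that carry it. Levels below are quantile-normalized log2 intensities unless called deposited. Changes are berberine minus control on the log2 scale, and adjusted p-values come from limma fitted over 26408 probes with a threshold of 0.05. The arrays of a group correlated at r = 0.994 (berberine) and 0.991 (control) across probes, against 0.912 to 0.918 between groups. The contrast was broad: 44.8% of probes passed, 27.1% higher and 17.7% lower, so 39.5% of the calls were downward (64.2% without normalization and 23.6% after centring each array on its median). With quantile normalization the median probe changed by 0.17 (by -0.05 with none, 0.26 with 75th percentile scaling and 0.52 with centring), and the members' changes are to be read against it. Both berberine arrays lay above both control arrays at 46.6% of probes and below them at 28.2%, so the absence of overlap is common here.

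The labels call the cells preadipocytes, and the fixed marker lists showed genes of both preadipocytes and adipocytes. Counts of markers below stand beside 30.0% of all 17734 genes called higher and 18.2% called lower. All 6 measured markers of preadipocytes and fibroblasts were above the level floor (an intensity of 95.8, the 25th percentile of an array), with 3 higher and 3 lower in berberine samples. Of 6 adipocyte markers 5 were lower, and their summed intensity was 29583 and 31508 in berberine samples, against 581087 and 556165 in control samples. T cell markers were higher at 3 of 4 (sums of 8000 and 8010 with berberine, 5552 and 6133 in control). Most of each sum came from Cd3e, at a mean log2 intensity of 12.87 with berberine and 12.40 in control. Cd3d averaged 7.23 and 6.78, Cd8a 7.89 and 7.76, and Cd4 was under the floor in control samples. Endothelial markers were higher at 2 of 4 (sums of 1236 and 1157 with berberine, against 792 and 849) and cardiomyocyte markers at 3 of 3 (1654 and 1668, against 683 and 588). For mast cells limma called 0 of 4 markers (1 at an unadjusted p under 0.05, sums of 497 and 467 with berberine, against 383 and 385), and for erythroid and megakaryocyte genes 1 rose and 1 fell of 4 (667 and 705, against 537 and 561). Leukocyte and macrophage markers gave 1 higher and 1 lower of 5 (sums of 1157 and 1077 with berberine, against 1032 and 1209). None of these probes was at 0. With either berberine array left out, fewer markers were called for preadipocytes, endothelial cells, cardiomyocytes, T cells, leukocytes and erythroid cells. The adipocyte calls were kept. Fewer of all genes were called in those fits too, which leave a lone array in a group. Leaving out a control array also lost T cell calls (replicate 1), endothelial calls (either replicate) and cardiomyocyte calls (replicate 2). The T cell calls were 0 in the deposited values and with the replicate block, where 28.0% and 51.6% of all genes were called in either direction. In the deposited values 1 cardiomyocyte marker passed. The part of cell composition in the GATA and FOG changes was not tested.

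Of the 8 genes, by the probe with the highest mean level, 5 were higher with berberine (62.5%), 0 were lower and 3 did not pass, beside 30.0% of all 17734 genes called higher and 18.2% called lower. At an unadjusted limma p under 0.05 the members gave 6 higher and 0 lower, beside 6457 higher and 3690 lower of all 17734 genes. At least 2-fold rises were called for 4 of the 8, beside 12.9% of all genes. Gata2 is among the 4 by its brighter probe only, since the average of its probes changed by 0.61 on log2. The median change over the 8 genes was 0.99, beside 0.20 over all genes. By these probes the direction was upward for all 8 after quantile normalization, centring and 75th percentile scaling. Gata1 and Gata5 turned slightly negative in the deposited values. The median probe also rose under those scalings (0.17, 0.52 and 0.26). Gata1 lay under it after centring (0.33) and 75th percentile scaling (0.070), and Gata5 close to it in each. The dimmer Gata2 probe fell under each scaling. Without berberine replicate 1 or berberine replicate 2 the count of members called was 3, with 8.39% and 9.01% of all genes called higher.

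Gata3, a factor of preadipocytes and the master regulator of type 2 helper T cells, had the largest rise of the 8 genes. Its log2 intensity was 11.54 and 11.49 in berberine samples, against 8.82 and 9.04 in control samples. The berberine arrays stood close together and the nearest arrays of the 2 groups were 2.45 apart. The deposited intensities were 2630 and 2807 with berberine, against 626 and 584 in control, so the groups did not overlap before normalization either, with a smaller log2 change of 2.17. The level averaged 11.52 ± 0.038 with berberine and 8.93 ± 0.15 in control (SD, n = 2 each), a 6.02-fold rise (log2 change 2.59, SE 0.14, limma adjusted p = 0.000303). Only 73 of 17734 genes, or 0.412%, had a larger log2 rise. The gene lies at chr2:9857078-9887953 (GRCm38.p6). The rise passed under every scaling and with each array left out in turn, with log2 changes of 2.17 to 2.73.

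Gata2, the other GATA factor of preadipocytes and a factor of blood stem cells and mast cells, was read differently by its probes. At the brighter probe the log2 intensity was 11.05 and 11.03 in berberine samples, against 9.48 and 9.49 in control samples. The deposited values of this probe were 1763 and 1964 with berberine, against 1000 and 793 in control. Both berberine arrays were above both control arrays on either scale, and the mean was 11.04 ± 0.012 with berberine and 9.49 ± 0.0052 in control (SD, n = 2 each). That is a 2.93-fold rise (log2 change 1.55, SE 0.12, limma adjusted p = 0.000786), larger than those of all but 4.15% of genes.

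The dimmer Gata2 probe went the other way. It read 8.14 and 8.19 with berberine, against 8.53 and 8.46 in control, both berberine arrays below both control arrays. The log2 change of -0.33 (95% interval -0.64 to -0.017, before adjustment) did not pass (limma adjusted p = 0.0815), but in the deposited values it was -0.91 and did (adjusted p = 0.0411). The brighter probe exceeded the dimmer one by 2.91 and 2.84 on log2 in berberine samples, against 0.95 and 1.03 in control samples, so the ratio of the probes differed between the groups. Averaged over both probes, Gata2 changed by 0.61 (adjusted p = 0.00991). Probes with changes of both signs were found in 47.2% of the 2276 genes with several probes. The part of the transcript that each probe reads is not given in the sources used here, and the rise of Gata2 rests on its brighter probe. The gene lies at chr6:88193891-88207032.

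**Figure D1:**
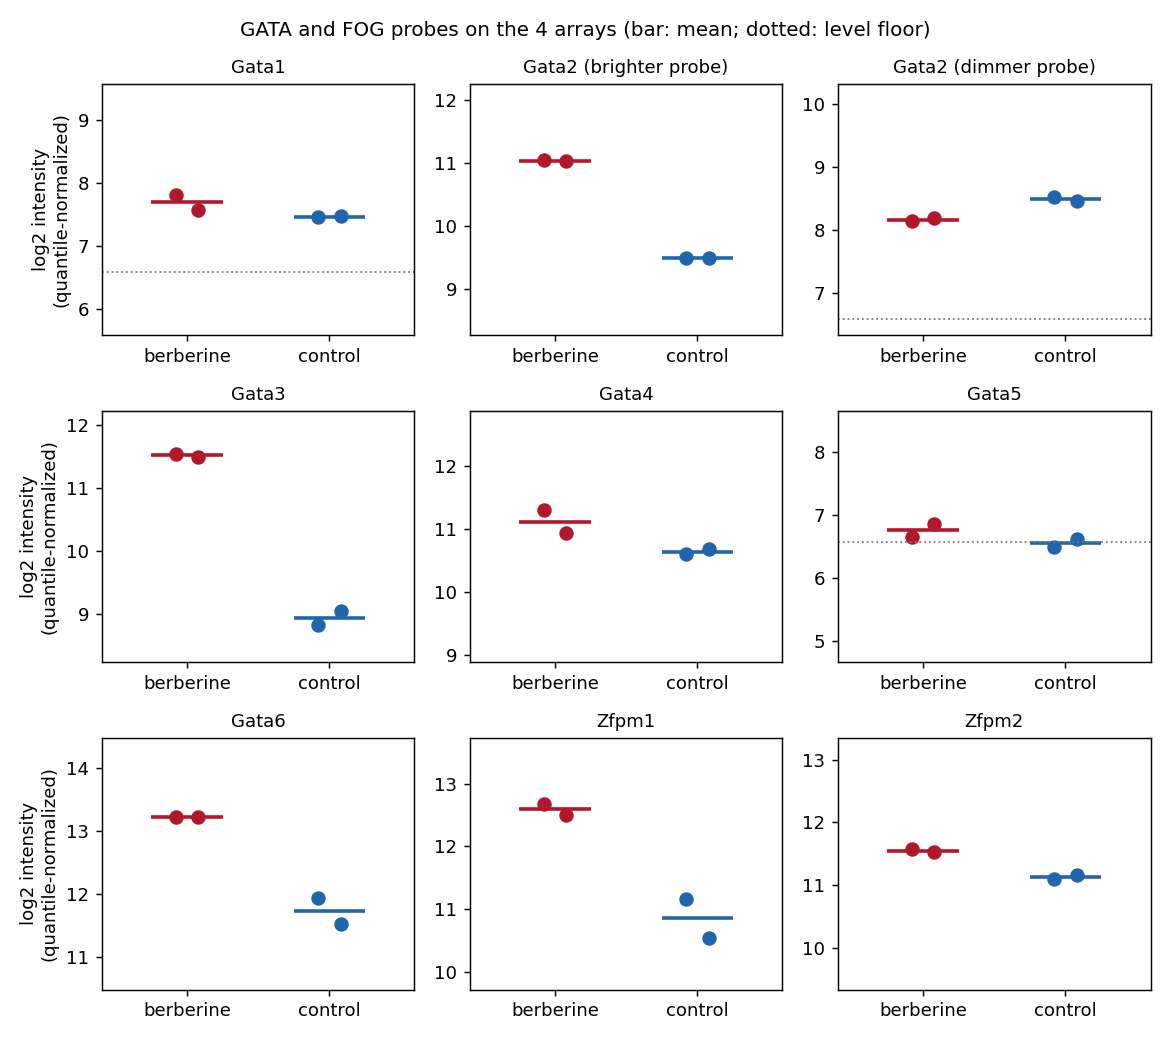
Quantile-normalized log2 intensity of each of the 9 GATA and FOG probes, 1 panel per probe, with berberine samples left and control samples right (points: arrays, n = 2 per group; bar: group mean; dotted line: level floor, where it falls in the panel). Every panel spans the same log2 range; Gata3 shows the widest gap between groups, 11.54 and 11.49 with berberine against 8.82 and 9.04 in control, and the dimmer Gata2 probe is the only one lower with berberine.

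Among the GATA factors of heart and endoderm, Gata6 was higher with berberine. Gata6, which drives primitive endoderm and heart development and is also expressed in smooth muscle, had log2 intensities of 13.22 and 13.22 in berberine samples, against 11.93 and 11.53 in control samples. The deposited intensities were 9479 and 10443 with berberine, against 4624 and 2758 in control. The groups did not overlap on either scale, and the spread lay almost wholly among the control arrays (SD 0.0014 with berberine and 0.28 in control, n = 2 each). The rise was 2.82-fold (log2 change 1.50, SE 0.17, limma adjusted p = 0.00273), and 4.71% of genes had a larger one. It still passed without any 1 array, by a narrow margin without berberine replicate 1 or 2 (adjusted p = 0.0496 and 0.0481).

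Gata4, a regulator of cardiac genes, read 11.30 and 10.93 in berberine samples, against 10.59 and 10.67 in control samples. The normalized groups did not overlap, but the berberine arrays differed by 0.37, and in the deposited values (2156 and 1813 with berberine, 2076 and 1663 in control) the groups overlapped. The log2 change of 0.48 (95% interval 0.043 to 0.91, before adjustment) did not pass (limma adjusted p = 0.0735), and it did after centring (0.66, adjusted p = 0.0498).

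Gata5, a factor of endoderm and heart valves, sat at the level floor, with 6.66 and 6.86 in berberine samples against 6.50 and 6.63 in control samples. Its change of 0.20 (95% interval -0.16 to 0.56) did not pass (limma adjusted p = 0.304), and a probe this dim says little about Gata5. Gata1, the factor of red cells and megakaryocytes, read 7.80 and 7.57 with berberine, against 7.46 and 7.47 in control. Its change of 0.23 (95% interval -0.13 to 0.58) did not pass either (limma adjusted p = 0.242) and was -0.24 in the deposited values, where the berberine samples read 170 and 178 and the control samples 221 and 190.

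Of the FOG cofactors, Zfpm1 had the larger measured change. Zfpm1 encodes FOG1, the partner of GATA1 and GATA2 in blood cells that also binds GATA3. Its log2 intensity was 12.68 and 12.50 in berberine samples, against 11.16 and 10.55 in control samples. The deposited values were 6418 and 6259 with berberine, against 2961 and 1550 in control, so the control arrays differed from each other more than the berberine arrays did, and the groups stayed apart. The rise was 3.33-fold (log2 change 1.74, SE 0.23, limma adjusted p = 0.00426), with larger rises at 2.68% of genes. The call was lost without berberine replicate 1 (1.65, adjusted p = 0.0643) and without berberine replicate 2 (1.83, adjusted p = 0.0533). The gene lies at chr8:122281856-122337862.

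Zfpm2 encodes FOG2, the partner of GATA4 in the developing heart. It read 11.58 and 11.53 in berberine samples, against 11.10 and 11.16 in control samples, apart by 0.37 at the nearest arrays. In the deposited values the groups overlapped, with 2717 and 2890 with berberine against 2866 and 2203 in control. The 1.34-fold rise (log2 change 0.42, SE 0.12, limma adjusted p = 0.0417) was 0.25 above the median of all probes, and 36.9% of genes had a larger one. It passed after quantile normalization and after centring, but not in the deposited values (0.16, adjusted p = 0.703), after 75th percentile scaling (0.46, adjusted p = 0.102), or without any 1 of the 4 arrays (adjusted p = 0.0551 to 0.206). With the replicate number as a block the adjusted p was 0.0827.

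**Figure D2:**
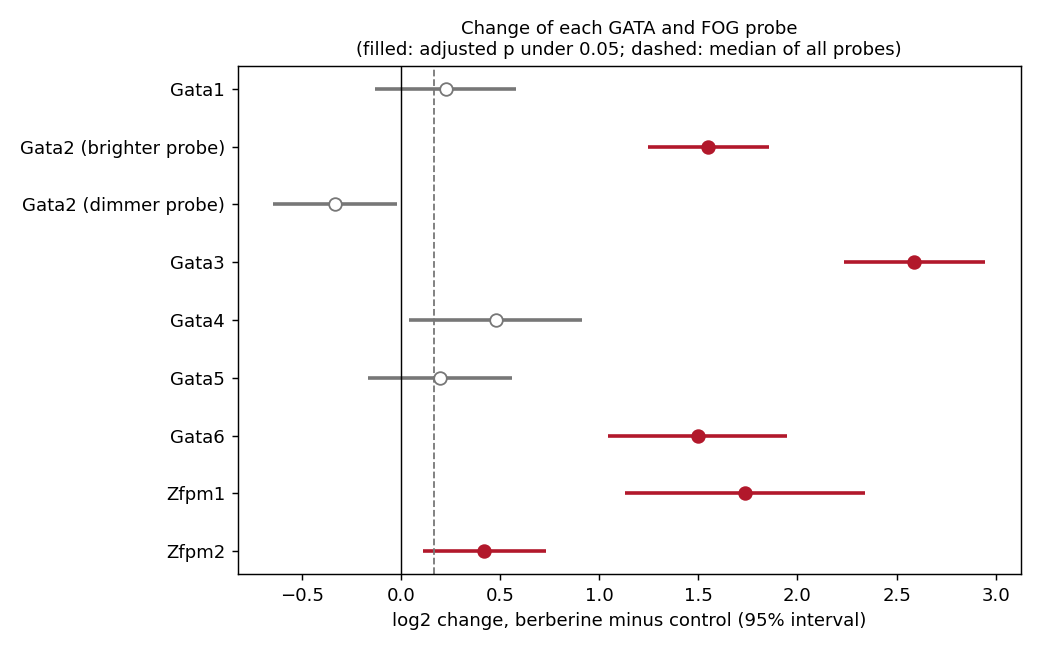
Log2 change, berberine minus control, of each GATA and FOG probe (points) with its 95% interval from limma (lines, not adjusted for the number of probes), filled red where the adjusted p is under 0.05 and open grey where it is not; the dashed line is the median of all probes, 0.17. Gata3 lies farthest right at 2.59, Zfpm1, the brighter Gata2 probe and Gata6 follow at 1.74, 1.55 and 1.50, and the other probes lie between -0.33 and 0.48.

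In order of change the genes ran Gata3, Zfpm1, Gata2 at its brighter probe, Gata6, Gata4, Zfpm2, Gata1 and Gata5. The interval of Gata3 (2.23 to 2.95) lay above those of Gata2 (1.25 to 1.85) and Gata6 (1.05 to 1.95) and overlapped that of Zfpm1 (1.13 to 2.34). The intervals of Zfpm1, Gata2 and Gata6 overlapped one another, as did those of Gata4, Zfpm2, Gata1 and Gata5. Differences in change between genes were not tested.

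**Figure D3:**
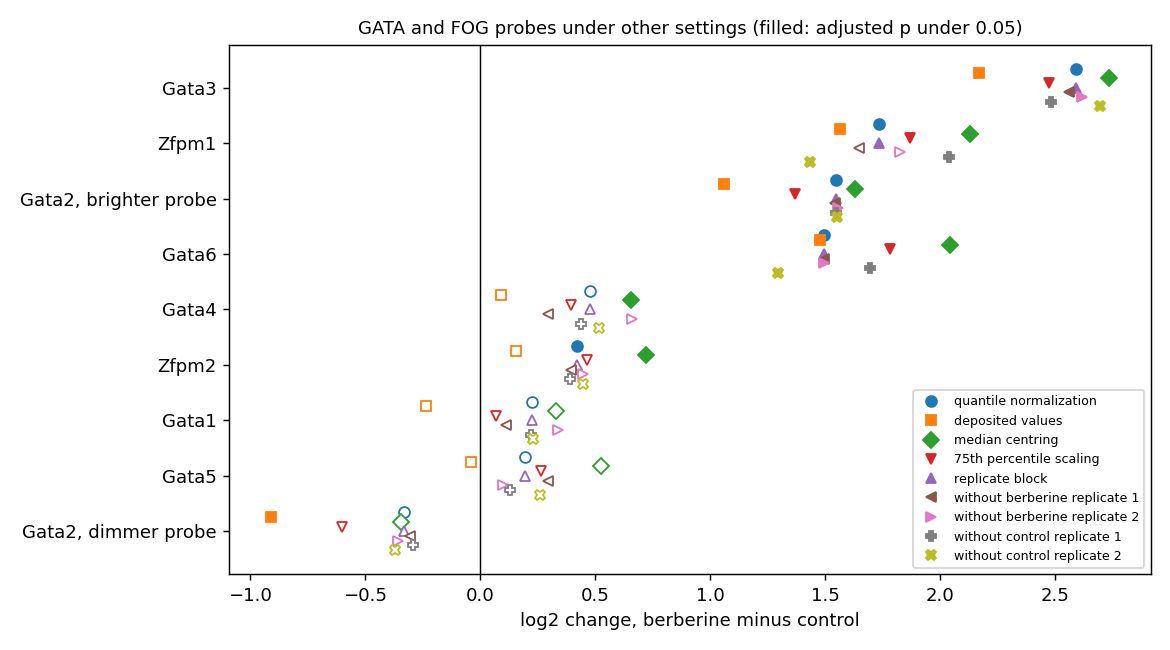
Log2 change, berberine minus control, of each GATA and FOG probe under quantile normalization and 8 other settings (1 symbol per setting, filled where the adjusted p is under 0.05). Gata3, the brighter Gata2 probe and Gata6 are filled throughout, Zfpm1 is open where either berberine array is left out, and Zfpm2 is filled in 2 of the 9 settings shown.

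Expression profiles closest to each risen member were found by the root mean square difference of gene-centred log2 profiles over the 4 arrays, among 14770 other genes. Nearest to Gata3 were Msln, which encodes the surface protein mesothelin (difference 0.020), Ereg, the growth factor epiregulin (0.032), and Ckap2, a protein of the mitotic spindle (0.037), with log2 changes of 2.58, 2.65 and 2.63. Nearest to Gata2 were Fhdc1, Pcdh7, a protocadherin, and Slc41a1, a magnesium transporter (changes of 1.55, 1.56 and 1.53). Nearest to Gata6 were Itprip, Dapp1, an adaptor protein, and Ctrl, a chymotrypsin-like protease (1.47, 1.49 and 1.53). Nearest to Zfpm1 were Tom1l1, Pus7l and Rapgef1, an exchange factor for Rap GTPases (1.71, 1.77 and 1.71). Nearest to Zfpm2 were Ttbk1, a tau kinase, D11Wsu47e and Minpp1, an inositol phosphate phosphatase (0.42, 0.43 and 0.43). With 4 arrays such likeness mostly says that the size of the change was alike.

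Corepressors that FOG proteins bring to GATA factors were called at shares near those of all genes. Of 14 measured NuRD and CtBP genes 5 were higher, 3 lower and 6 did not pass, beside 30.0% of all genes higher and 18.2% lower, and their median change was 0.10, beside 0.20 over all genes. Fewer of the 14 passed with either berberine array left out, as did fewer of all genes. With probes averaged 5 passed in place of 8. Gatad2a, a NuRD subunit with a GATA-type zinc finger, read 14.66 and 14.73 in berberine samples, against 13.25 and 13.10 in control samples (2.88-fold higher, limma adjusted p = 0.00105). Its other probes changed by 1.07 and -2.10, and the average of its probes did not pass (0.16, adjusted p = 0.385). Rbbp7, a histone-binding subunit, was 3.06-fold higher (11.75 with berberine and 10.14 in control). Mta1, another subunit with such a finger, read 7.95 and 7.77 with berberine, against 10.46 and 10.46 in control (6.05-fold lower, limma adjusted p = 0.000269). Ctbp2 was 2.14-fold lower at its brighter probe, while the other changed by 0.40 and did not pass. That fall missed the threshold without berberine replicate 1 (adjusted p = 0.0510) and with probes averaged (-0.35, adjusted p = 0.111).

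Other proteins with a GATA-type zinc finger, of which 5 are also in the NuRD list, were called higher at 5 and lower at 2 of 9, with a median change of 0.69, beside 30.0% higher, 18.2% lower and a median of 0.20 over all genes. Fewer of the 9 were called with either berberine array left out, as were fewer of all genes. With probes averaged 3 were higher and 1 lower. Rere, a transcriptional coregulator of the atrophin family, was 2.08-fold higher (13.47 with berberine and 12.42 in control), a call lost without berberine replicate 1 or 2 (adjusted p = 0.0528 and 0.0538). Trps1, a repressor that binds GATA sites, was 1.78-fold higher at its brighter probe, but its other probe fell by 1.83 and their average changed by -0.50, so the direction of Trps1 depends on the probe. The Trps1 rise was also lost with no normalization (0.23, adjusted p = 0.547), after 75th percentile scaling (0.53, adjusted p = 0.112) and without berberine replicate 1 or 2 (adjusted p = 0.0905 and 0.0990).

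The TAL1, LMO2 and LDB1 group forms complexes with GATA1 and GATA2 in blood cells. Of 15 measured genes of this group 4 were higher, 3 lower and 8 did not pass (median -0.015). These shares were again near the 30.0% higher and 18.2% lower of all genes. Fewer of the 15 were called with either berberine array left out, as were fewer of all genes. Lmo2, the bridging protein of the complex, read 8.60 and 8.70 with berberine, against 6.91 and 7.03 in control (3.21-fold higher, limma adjusted p = 0.000791). Tcf3, the E protein that pairs with TAL1, fell to 7.57 and 7.71 in berberine samples, against 12.90 and 12.75 in control samples (36.4-fold lower, limma adjusted p = 7.13e-05). Ssbp3, which stabilises LDB1, was 3.52-fold lower, and its relative Ssbp2 was 1.94-fold higher. The Ssbp2 call was lost with no normalization (adjusted p = 0.190) and if berberine replicate 1 or 2 was left out (adjusted p = 0.0521 and 0.0599). Tal1 itself was under the floor in both groups.

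Modifiers and coactivators of GATA proteins were lower at 5 and higher at 4 of 10 measured genes (median -0.66), beside 18.2% lower, 30.0% higher and a median of 0.20 over all genes. Among the higher, Med1 had another probe that was lower (-1.98, limma adjusted p = 0.000885). Among the lower, Crebbp was under the floor in berberine samples. Brd3, a bromodomain protein that binds acetylated GATA1, read 12.72 and 12.68 with berberine, against 10.47 and 10.54 in control (4.58-fold higher, limma adjusted p = 0.000329). Hdac5, a deacetylase, was 8.40-fold lower, and Pias4, a SUMO ligase, 8.33-fold lower. Pias4 averaged 6.85 with berberine, near the floor of 6.58 on log2, so the size of its fall is uncertain. Akt1, the insulin-responsive kinase, was 6.01-fold lower (12.07 with berberine and 14.66 in control).

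Genes of a fixed adipogenic list were mostly lower. It holds Pparg and C/EBP genes, and also general genes of adipocytes and preadipocytes such as Adipoq, Fabp4 and Dlk1. Of 8 measured, 6 were lower, 1 was higher and 1 did not pass, with a median change of -1.76, beside 18.2% lower, 30.0% higher and a median of 0.20 over all genes. Cebpa, a C/EBP factor that binds GATA proteins, read 9.44 and 9.39 in berberine samples, against 12.09 and 12.23 in control samples (6.73-fold lower, limma adjusted p = 0.000215), while Cebpb, at 14.42 with berberine and 14.79 in control, did not pass (adjusted p = 0.270). Adipoq, the adiponectin gene, averaged 10.54 with berberine and 17.51 in control, and Fabp4, a fatty acid binding protein, 14.77 with berberine and 17.59 in control. The preadipocyte gene Dlk1 averaged 13.95 with berberine and 15.58 in control at its brighter probe. Its other probe changed by -0.20 and did not pass. The 1 higher call, Pparg, was under the floor in both groups and gives no reading of that gene.

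**Figure D4:**
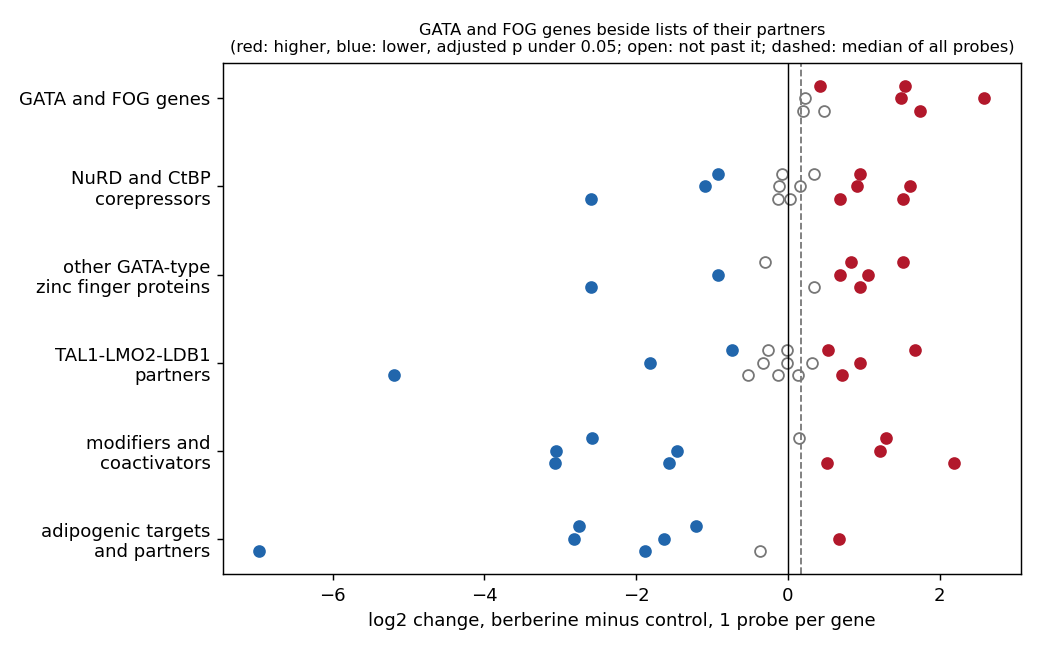
Log2 change, berberine minus control, of the 8 GATA and FOG genes (top) and of 5 lists of partner and related genes, 1 probe per gene (red: higher, blue: lower, adjusted p under 0.05; open: not past it; dashed line: median of all probes, 0.17). The GATA and FOG genes all lie right of 0, 5 of them red, while the corepressor, TAL1 and modifier lists hold points on both sides and the adipogenic list lies mostly on the left.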

How the data were processed

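RNA of 2 berberine and 2 control samples was read on Cy5 arrays of 1 colour, per the labels. The deposited values are linear probe intensities; scanner, background correction and scaling are not stated in the labels, so zero point and scale are unknown. Of 26423 probes, 20377 had 1 gene symbol, 0 several and 6046 none; 18213 matched a current mouse symbol, 2126 an older one, and 38 kept the annotation's. Probes with a value of 0 or less somewhere (15 of them) were dropped. Log2 intensities were quantile-normalized, because array medians differed by 0.84 on log2, and fitted with limma 3.58.1 (R 4.3.3, 2 residual and 2.89 prior degrees of freedom, Benjamini-Hochberg adjustment over all probes). The fit was also run on simulated arrays with as many planted rises as falls. Calls in these data were not balanced in that way, and the simulation does not cover such imbalance. Exact permutation of 2 against 2 arrays cannot go below p = 0.33. A gene's probe with the highest mean represented it in counts.

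The members and lists were chosen with earlier results of these data known. All members were named, with up to 4 called genes of smallest p per list and the 3 nearest profiles of each called member; other genes named were chosen after their values were seen. Alternatives covered scaling, the replicate block, the variance prior, an offset of 16, a filter on dim probes, averaging of probes, a 2-fold minimum and each array left out. The number of arrays limits the precision.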

Additional observations from a re-analysis of the deposited data

How the results depend on the processing

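Across the 9 GATA and FOG probes, 89 of 100 comparisons with an alternative kept their direction or their lack of a call, 9 lost the call, 2 gained one and 0 reversed a call. Leaving out 1 array assumes that the lone array of a group varies like the others. It gave log2 changes of 1.43 to 2.04 for Zfpm1, 0.39 to 0.45 for Zfpm2, 3 to 4 members called in place of 5, 20 to 43 genes called over the fixed lists in place of 47, and 4339 to 10772 probes in place of 11838. Probes called numbered 6687 in the deposited values and 5806 with at least a 2-fold change added. Zfpm2 changed by 0.16 in the deposited values, by 0.46 after 75th percentile scaling and by 0.42 with the replicate block, with no call in any of them. Gains were the dimmer Gata2 probe in the deposited values (-0.91) and Gata4 after centring (0.66). The titles share replicate numbers, but arrays of the same number did not deviate together across normalized probes (correlation 0.0035). That correlation cannot exclude shared handling, because normalization removes shifts of whole arrays and an effect on few probes would not show. The block gave 12760 probes and moved no other member across the threshold. Of 46 other named genes, 3 reversed under 1 alternative each: Nfatc4 (0.13 after centring), Ttbk1 (-0.068 in the deposited values) and Trps1 (-0.50 with probes averaged). In 90 of their 514 comparisons a call was lost. The cause of these losses was not tested, and signal over background is unknown because no background was read.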

Other observations

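Genes known as targets of GATA factors in other tissues were followed as well. Counts in these lists stand beside 30.0% of all genes called higher and 18.2% called lower. Of 5 measured cardiac targets 4 were higher with berberine and 0 lower (0 lower also at an unadjusted limma p under 0.05). Their median change was 0.58, beside 0.20 over all genes. Tnnt2, Tnni3 and Nppa among them are also the 3 cardiomyocyte markers given above. Tnnt2, cardiac troponin T, averaged 10.11 with berberine and 8.03 in control (limma adjusted p = 0.00146), and its call held in the deposited values and without any 1 array. Nppb and Nppa, the natriuretic peptide genes, changed by 0.90 and 0.58, and Tnni3, cardiac troponin I, by 0.57; these 3 missed the threshold in the deposited values (0.30, 0.0055 and 0.23), after 75th percentile scaling (0.60, 0.31 and 0.54) and without berberine replicate 1 or 2, and Nppa and Tnni3 also without control replicate 2. Among GATA4 partners in the heart, 1 of 7 was higher (Mef2c, 0.56) and 1 lower (Nfatc4, -0.59), and other probes of Nfatc4 changed by 0.68 and -4.57. Both calls were lost without berberine replicate 1 or 2, without control replicate 1, in the deposited values and after 75th percentile scaling, that of Nfatc4 also without control replicate 2, and Nfatc4 changed by 0.13 after centring.

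Blood cell targets showed 1 higher and 1 lower of 10. Over all genes, for this list and those that follow, the shares were 30.0% higher and 18.2% lower. Pf4, platelet factor 4, averaged 7.91 with berberine and 6.70 in control (adjusted p = 0.00465, lost in the deposited values and without berberine replicate 1 or 2), and Itga2b, a platelet integrin, was under the floor in both groups. Of 5 T cell targets Il5 changed by 0.51 (a call lost without berberine replicate 1 or 2 or control replicate 1, in the deposited values and after 75th percentile scaling) and Rora, a nuclear receptor, was at least 14.9-fold lower, with berberine samples under the floor. Of 7 endoderm targets 2 were higher and 1 lower. Afp, alpha-fetoprotein, averaged 7.40 with berberine and was under the floor at 5.98 in control, at least 1.76-fold higher. Hnf4a and Alb changed by 0.59 and -0.43, calls lost without berberine replicate 1 or 2, for Hnf4a also in the deposited values and after 75th percentile scaling, and for Alb also without control replicate 1, after centring and with the replicate block.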
